A study of Mus musculus with 79 samples.

Results

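Structural myelin genes encode the proteins that build, compact and couple the layers of the myelin sheath. The set held 8 genes, Mbp, Pmp22, Prx, Mag, Cnp, Mal, Cldn19 and Gjb1, chosen by symbol from the 23361 genes in the count tables, and all 8 had a row in each table. Their RNA was followed through mouse nerve repaired at once or late. In each animal the common peroneal nerve was grafted to the tibial nerve, either directly after injury (immediate repair) or once 8 weeks had passed (delayed repair), across a silicone conduit in which a bridge of new tissue formed. All animals were S100β-eGFP mice, in which the human S100β promoter drives a green fluorescent protein, and both sexes were present in every group. The distal stump was taken at day 5 only, as bulk RNA, in 9 delayed and 7 immediate animals. From the bridge, Schwann cells (SC) were sorted as fluorescent cells negative for the other surface markers, in 9 delayed and 7 immediate animals at day 5 and in 7 delayed and 8 immediate animals at day 14. Macrophages were sorted from the same bridges, in 9 delayed and 8 immediate animals at day 5 and in 7 delayed and 8 immediate animals at day 14. Each library came from 1 animal with no pooling, giving 79 libraries from 32 animals, and there was no uninjured nerve among them. The labels give the bridge as the source tissue of every sample, also of those named distal stump, and the latter name is used here.

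A myelinating SC wraps 1 stretch of 1 axon. Compact myelin is held together by membrane proteins such as PMP22 and, on the cytoplasmic face, by myelin basic protein (Mbp). Periaxin (Prx) links the outer SC membrane to the basal lamina, myelin-associated glycoprotein (Mag) sits in the membrane facing the axon, and Cnp keeps cytoplasmic channels open in the sheath. Mal is a raft protein that takes part in sorting myelin membrane, claudin 19 (Cldn19) forms tight junctions within the sheath, and connexin 32 (Gjb1) forms the gap junctions that join its layers. After a nerve is cut, SC stop making these proteins, clear myelin and turn into repair cells, and they return to the myelin programme when axons grow back. Sox10 and Egr2 are the transcription factors that switch myelin genes on. PMP22 is also made outside the nerve, and transcripts of the Mbp locus (the Golli forms) occur in immune cells. Gene counts do not separate such forms.

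Promoter sequence is shown for 4 members that behaved differently in the stump: Gjb1, which differed most between repairs, Prx, which also fell, and Pmp22 and Mag, for which no difference was called or tested. Each window holds the 250 bases before 1 start site, read 5′ to 3′ on the gene's strand from RefSeq on GRCm38.p6, and capitals mark the motifs searched for on both strands. The motif for Sox factors was ACAAAG. The motif for Egr factors was GCGTGGG, and that for a TATA box TATAAA. No matches overlapped in these windows. One window is printed for each gene, and for Gjb1 and Mag it was chosen after the matches were seen.
Gjb1, chrX:101383482-101383731, plus strand: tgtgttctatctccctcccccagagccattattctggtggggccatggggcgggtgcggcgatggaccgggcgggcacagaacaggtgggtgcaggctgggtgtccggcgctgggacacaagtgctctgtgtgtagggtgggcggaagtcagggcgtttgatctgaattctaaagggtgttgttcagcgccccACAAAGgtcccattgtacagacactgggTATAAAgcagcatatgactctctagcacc
Prx, chr7:27499074-27499323, plus strand: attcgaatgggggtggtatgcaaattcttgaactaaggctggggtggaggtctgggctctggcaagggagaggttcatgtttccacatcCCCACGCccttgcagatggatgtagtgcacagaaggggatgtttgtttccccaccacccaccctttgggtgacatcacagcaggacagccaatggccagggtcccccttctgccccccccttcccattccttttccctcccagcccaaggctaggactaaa
Mag, chr7:30914923-30915172, minus strand: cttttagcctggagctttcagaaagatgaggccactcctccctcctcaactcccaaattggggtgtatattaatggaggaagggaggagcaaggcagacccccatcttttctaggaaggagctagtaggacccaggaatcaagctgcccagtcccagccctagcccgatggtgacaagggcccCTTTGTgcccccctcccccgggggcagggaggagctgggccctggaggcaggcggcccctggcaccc
Pmp22, chr11:63128732-63128981, plus strand: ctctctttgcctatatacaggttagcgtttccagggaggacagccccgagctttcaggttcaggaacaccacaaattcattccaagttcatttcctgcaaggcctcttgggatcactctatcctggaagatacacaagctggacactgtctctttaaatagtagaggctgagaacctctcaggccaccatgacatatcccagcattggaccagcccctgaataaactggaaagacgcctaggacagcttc
The Gjb1 window held a Sox motif that began 57 bases before the start site and a TATA motif 29 bases before it. The Prx window held an Egr motif 161 bases before the start, the Mag window a Sox motif 67 bases before it, and the Pmp22 window none of the motifs. The table gave 16 start sites for 7 of the members, and 5 of these windows held a Sox motif, 1 an Egr motif and 1 a TATA motif. Of the 4 Gjb1 windows, 2 held a Sox motif, 1 of them also the TATA motif, and 2 held none. Of the 3 Mag windows 1 held none, and none of the 4 Pmp22 windows held a motif. The windows of 2 Mag start sites overlap and share 1 Sox site, so that the 5 windows hold 4 sites. Among all 32851 windows of the same length, 16.5% held the Sox motif, 4.3% the Egr motif and 12.4% the TATA motif. A match only describes the letters, and no binding was measured.

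In GRCm38, the genome the reads were aligned to (mm10), the gene models (GENCODE vM21) place Pmp22 at chr11:63128982-63159547, Prx at chr7:27499324-27520214, Mag at chr7:30899176-30914873 (minus strand) and Cnp at chr11:100574904-100591729. Mal lies at chr2:127633226-127656695 (minus strand), Cldn19 at chr4:119255414-119262438 and Gjb1 at chrX:101376378-101385629. Exons of Prx, Cnp and Cldn19 overlap exons of an antisense gene over 300, 154 and 90 bases (5.38%, 4.23% and 2.11% of their exon length), so a small share of their reads cannot be assigned if strand was not used.

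Levels are given as CPM, the count divided by the total of its library and put on a common scale. Totals ran from 3898778 to 9212709 in stump libraries, 11614940 to 30796823 in SC libraries and 14928745 to 28499407 in macrophage libraries, so that 3 counts, the limit that a count of 0 allows, stood for at most 0.769, 0.258 and 0.201 CPM. These limits cover counting error only. The SC libraries matched their label in part. Sox10 was read in 30 of the 31 SC libraries, up to 199 CPM, while it was 0 in 28 of 32 macrophage libraries and at most 1.75 CPM in the rest. Dendritic cell genes were far more abundant in the SC libraries. The dendritic list summed to 17000 to 39100 CPM in SC libraries and 1030 to 17800 CPM in macrophage libraries, and Ccr7, a homing receptor of mature dendritic cells, stood at 2413 to 9817 CPM in the former. The sum of 6 SC markers was only 1.53 to 231 CPM in delayed and 35.8 to 413 CPM in immediate SC at day 5, and 66.3 to 487 and 116 to 622 CPM at day 14. All member values from sorted SC therefore come from libraries in which SC markers summed to far less than dendritic ones, and the SC sum varied between animals. The share of SC RNA itself was not measured. Markers of oligodendrocytes, the myelinating cells of the central nervous system, summed to at most 1.75 CPM in the stump.

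Delayed repair left the distal stump with less RNA for most structural myelin genes at day 5. Of the 6 members that passed the filter on low counts, 5 were lower in delayed than in immediate stumps and none was higher, where 26.3% of all genes tested were called in either direction and 13.5% were called lower. Gjb1 passed the filter only through the immediate stumps, where it was high, and had to differ, which leaves 4 of 5 for the other members. Pmp22 was the member not called, and Mag and Cldn19 were too low to pass the filter. In a bulk stump, fewer cells of a type and less RNA per cell cannot be told apart.

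Mbp, the cytoplasmic glue of compact myelin, had a lowest, median and highest level of 27.5, 33.2 and 41.5 CPM in the 9 delayed stumps and of 87.5, 124 and 210 CPM in the 7 immediate stumps. The groups did not overlap, and the delayed stumps lay in a narrow band. Its log2 fold change was -2.06 (SE 0.15, adjusted p = 2.17e-07, edgeR quasi-likelihood test with Benjamini-Hochberg adjustment, as for each adjusted p below). Cnp stood at 33.9, 49.7 and 69.4 CPM in delayed and at 140.8, 161.5 and 248.8 CPM in immediate stumps. Here too every delayed stump lay below every immediate one, with a log2 fold change of -1.90 (SE 0.16, adjusted p = 4.49e-07). Prx stood at 7.09, 12.9 and 18.4 CPM against 23.2, 42.4 and 53.7 CPM. The groups were again separate, with a log2 fold change of -1.61 (SE 0.21, adjusted p = 4.78e-05). Mal stood at 1.62, 8.19 and 30.1 CPM in delayed and at 18.5, 33.1 and 45.9 CPM in immediate stumps. The Mal groups overlapped, since delayed animals 6 and 7 reached 23.6 and 30.1 CPM, and the log2 fold change was -1.47 (SE 0.43, adjusted p = 0.0177).

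The gap junction gene Gjb1 showed the widest gap among the members. It had no count in 3 of the 9 delayed stumps and between 1 and 6 counts in the others, which gave a median of 0.175 and a highest value of 0.819 CPM. The 7 immediate stumps held 8.56, 17.97 and 50.8 CPM as lowest, median and highest. The log2 fold change of -6.14 (SE 0.50, adjusted p = 3.84e-07) was the second lowest of all 12229 genes tested, and since most delayed values lie at or below the 3-count limit its size is uncertain. Cldn19, the tight junction gene, fell to 0, 0.524 and 1.93 CPM in delayed stumps from 2.81, 5.32 and 9.54 CPM in immediate ones, without overlap. With no filter on low counts, its log2 fold change was -2.82 (SE 0.48, adjusted p = 0.00043).

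Pmp22 and Mag behaved otherwise. Pmp22 stood at 35.4, 57.7 and 112 CPM in delayed and at 69.3, 83.9 and 115 CPM in immediate stumps. Delayed animals 1, 5 and 7 lay within the immediate range, and the log2 fold change of -0.54 (SE 0.20, adjusted p = 0.0588) missed the threshold. Without delayed animal 1 it was -0.70 (adjusted p = 0.0062), and without immediate animal 1 it was -0.60 (adjusted p = 0.0461), so that single animals decided whether it passed, as did DESeq2 (adjusted p = 0.0378) and scaling by library size (adjusted p = 0.0482), which both called it lower. Mag, the axon-facing adhesion protein, stood at 1.94, 3.06 and 5.24 CPM in delayed and at 2.93, 4.11 and 5.52 CPM in immediate stumps. The groups overlapped, with a log2 fold change of -0.35 (SE 0.20, adjusted p = 0.281) when no filter was used.

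**Figure D1:**
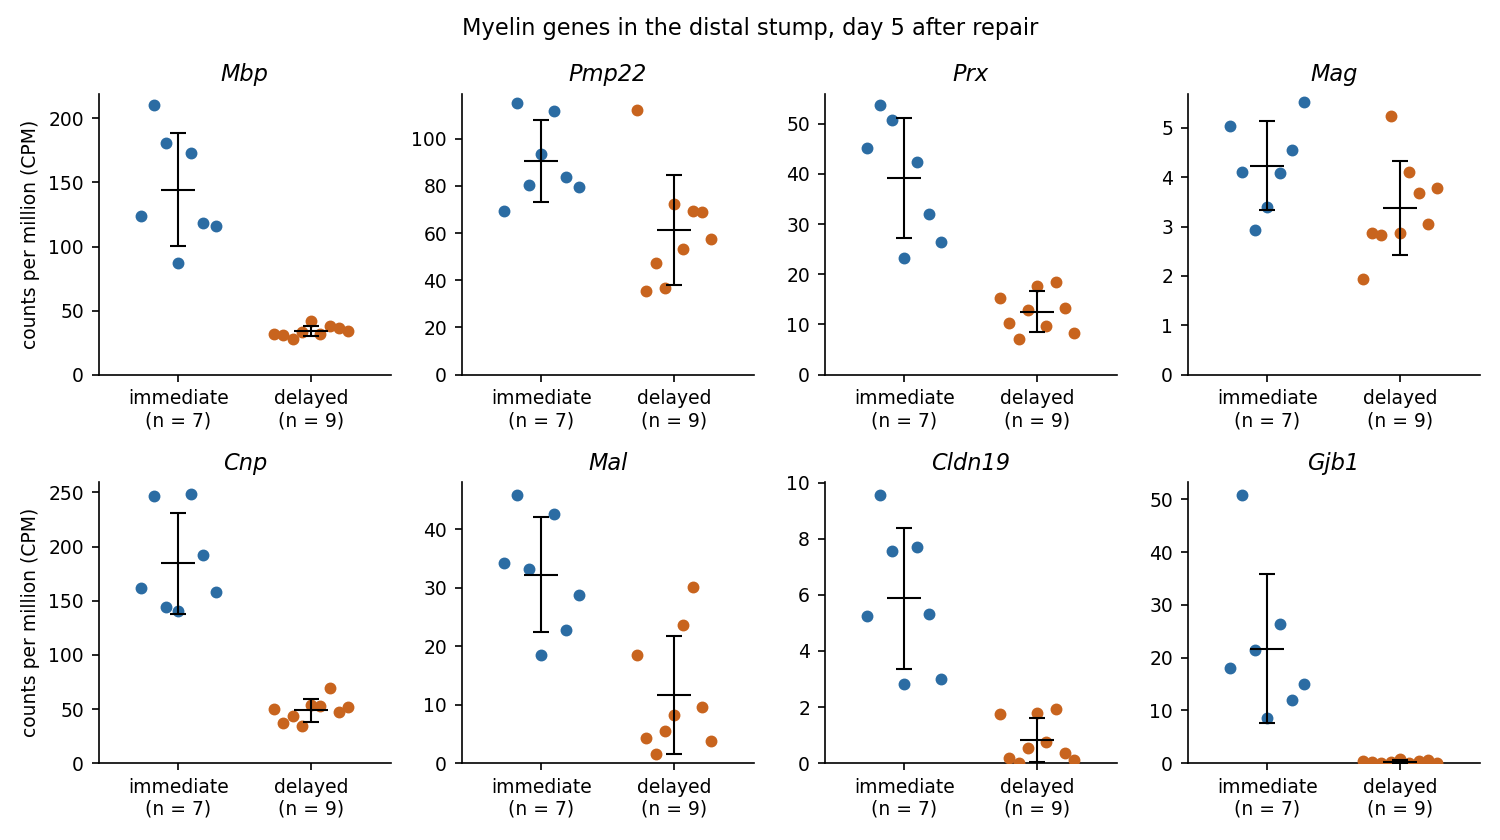
Level of each member in CPM (vertical axes, linear and from 0, each to its own scale) in the distal stump at day 5, with 1 point per animal, 7 immediate and 9 delayed. A line marks each group mean, and bars show the standard deviation. Mbp, Prx, Cnp, Cldn19 and Gjb1 show no overlap between the groups, while Pmp22, Mag and Mal do.

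Within the immediate group, animals 4, 7 and 8 held the lowest levels of Mbp, Prx, Mal and Gjb1, and they had the highest level of the macrophage gene Emr1 (547, 362 and 554 CPM, against 128 to 233 CPM in the other 4). Marker genes of several cell types moved with the repair group. The sum of 6 SC markers was 65.8 to 575 CPM in delayed and 722 to 1930 CPM in immediate stumps, and 5 of the 6 were called lower, among them Sox10 (log2 fold change -2.03, adjusted p = 0.000524) and S100b (-4.86, adjusted p = 8.9e-07). Macrophage markers summed to 1790 to 2830 CPM in delayed and 815 to 2390 CPM in immediate stumps, and 2 of 7 tested were called higher. Of the endothelial markers 4 of 5 were called higher, as were 4 of 5 mural and 2 of 6 dendritic markers. Of all genes tested, 12.8% were called higher and 13.5% lower. When a score of the SC markers was added to the fit, no member and 16 of all genes were called, with Mbp at -1.41 (adjusted p = 0.137), Cnp at -1.30 (adjusted p = 0.137), Gjb1 at -3.50 (adjusted p = 0.171), Prx at -0.19 (adjusted p = 0.864) and Mal at 1.06 (adjusted p = 0.567). The SC marker sums of the groups do not overlap, so that SC content and repair can hardly be told apart in this fit.

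Division by Sox10, a choice made after the values were seen, set each member against an SC gene in the same library. Of the 5 members whose groups had not overlapped in CPM, Gjb1 alone stayed separate on this scale. Mbp per Sox10 was 0.621 to 4.75 in delayed stumps (median 1.32) and 1.05 to 1.69 in immediate ones (median 1.47). Cnp per Sox10 was 1.14 to 7.23 (median 1.74) against 1.0 to 2.36 (median 1.88), and Prx per Sox10 0.303 to 1.21 (median 0.487) against 0.314 to 0.407 (median 0.384). Cldn19 per Sox10 was 0 to 0.121 (median 0.0242) against 0.0438 to 0.0724 (median 0.0522), and Mal per Sox10 0.176 to 0.742 (median 0.482) against 0.224 to 0.418 (median 0.311). These ranges overlapped, with a wider spread in the delayed animals. Gjb1 still separated the groups, with 0 to 0.0561 (median 0.00704) in delayed and 0.117 to 0.385 (median 0.153) in immediate stumps. Pmp22 and Mag lay higher per Sox10 after delay, with medians of 2.53 against 0.873 and of 0.129 against 0.0428, although their ranges overlapped. The ratio of Mbp to Pmp22, both proteins of compact myelin, was 0.284 to 0.905 in delayed and 0.934 to 2.25 in immediate stumps, with no overlap. Pmp22 RNA was also high in sorted macrophages of day 5 (397 to 946 CPM, given below), so this ratio does not describe SC RNA alone. These ratios are a description and were not tested.

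**Figure D2:**
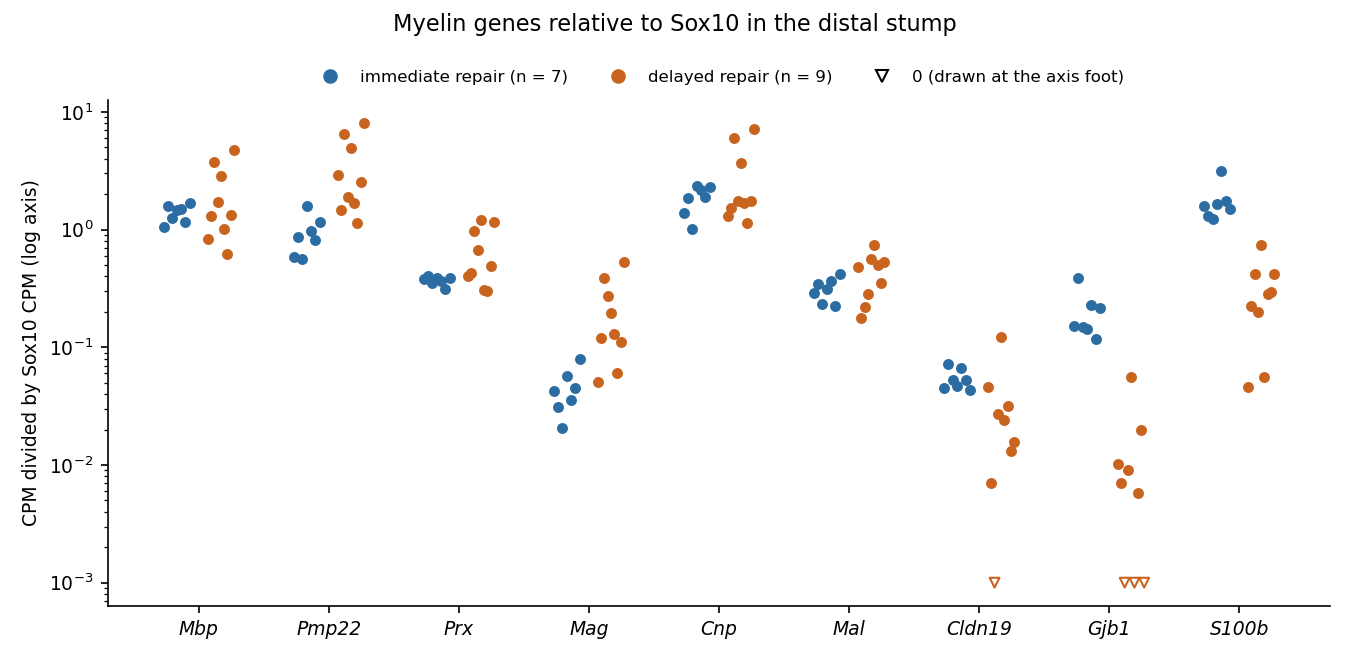
CPM of each member, and of S100b, divided by the CPM of Sox10 in the same distal stump library (log axis), with 1 point per animal, 7 immediate and 9 delayed, and values of 0 drawn as open triangles at the foot of the axis. Gjb1 and S100b keep the groups apart, with Gjb1 at 0 to 0.0561 in delayed and 0.117 to 0.385 in immediate stumps, whereas Mbp, Cnp, Prx and Mal overlap.

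Most other myelin genes of the stump were lower too. Of 25 listed genes 22 were tested, of which 17 were lower after delay and none higher, with a median log2 fold change of -1.53. Among those with the smallest p were Ugt8a (-3.37, adjusted p = 7.71e-06), which makes the myelin lipid galactosylceramide, Mtmr2 (-0.80, adjusted p = 8.8e-06), a lipid phosphatase, Nfasc (-1.85, adjusted p = 5.89e-05), an adhesion protein of the node, and Drp2 (-2.36, adjusted p = 8.67e-05), the partner of periaxin. Of 15 regulators of myelination tested, 7 were lower and 2 higher, with a median of -0.35. The share that was higher lay near that of all genes. Pou3f1, a factor of the promyelinating stage, was at -3.87 (adjusted p = 9.33e-07), the adhesion receptor Gpr126 at -1.24 (adjusted p = 3.83e-05), Jun, a driver of the repair state, at -0.77 (adjusted p = 3.93e-05) and Sox2, a factor of immature SC, at -2.43 (adjusted p = 0.000121), as was the neuregulin receptor Erbb3 at -1.94 (adjusted p = 0.000489). The 2 that were higher were Yy1 at 0.30 and Nfatc4 at 0.67, and Egr2 itself was at -0.02 (adjusted p = 0.972). Among genes of the repair state, 5 of 11 were lower, 1 was higher and 5 were not called, with a median of -0.92. Shh was at -5.91 (adjusted p = 2.32e-06), the neurotrophin receptor Ngfr at -2.92 (adjusted p = 5.12e-05) and the growth factor Gdnf at -2.60 (adjusted p = 0.000169), and Bdnf was higher at 0.72 (adjusted p = 0.0147).

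In sorted cells, the members divided into those read almost only in SC libraries, those shared with macrophages and 1 that was higher in macrophages. At day 5 all 6 members tested differed between the 16 SC and 17 macrophage libraries, where 65.3% of all genes were called, and at day 14 6 of 7 differed between 15 and 15 libraries, where 64.8% were called. With shares this high, the counts are no property of the members, and the sizes are what the comparison gives. Most of the SC and macrophage libraries came from the same animals, and the correlation between their deviations from the group means was low (0.0544 to 0.243 at day 5).

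Mal and Gjb1, like Prx and Cldn19, passed the filter through the SC libraries alone and had to differ. Mal had no count in all 17 macrophage libraries of day 5, which with 3 counts over the group as limit made it at least 1330-fold higher in SC libraries. The gap at day 14 was of a like kind, with 17 counts (0.608 CPM) in 1 of 15 macrophage libraries and none in the others, and a log2 fold change of 9.52 (SE 0.68, adjusted p = 9.08e-14). Gjb1 had no count in the 15 macrophage libraries of day 14 and was at least 960-fold higher in the pooled SC libraries. Delayed SC libraries 1 and 3 held 1150 and 1392 of its counts, and the bound was 548-fold without library 3 and 611-fold without library 1, while the median of the 15 SC libraries was 0.984 CPM. At day 5 its log2 fold change was 7.57 (SE 1.08, adjusted p = 1.7e-07), with 12 counts in 2 macrophage libraries. Prx was at most 2.47 CPM in macrophages and Cldn19 at most 0.272 CPM. The log2 fold change of Prx was 3.65 (SE 0.97, adjusted p = 0.00136) at day 5 and 6.31 (SE 0.74, adjusted p = 5.68e-09) at day 14, and that of Cldn19 was 8.32 (SE 1.06, adjusted p = 3.15e-08) at day 14.

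Mbp was present in every macrophage library, at 1.08 to 27.8 CPM, and in every SC library at higher levels, from 83.9 CPM upward. Its log2 fold change was 3.54 (SE 0.29, adjusted p = 8.81e-13) at day 5 and 4.30 (SE 0.38, adjusted p = 1.1e-11) at day 14, with no overlap on either day. Cnp stood at 15.5 to 60.4 CPM in macrophages and was higher in SC libraries by 0.83 (SE 0.30, adjusted p = 0.016) on the log2 scale at day 5 and by 1.54 (SE 0.23, adjusted p = 5.98e-07) at day 14. With the animal as a block, the day 5 difference of Cnp was 0.53 (adjusted p = 0.0732). Mag stood at 0.0702 to 5.83 CPM in macrophages and at 0 to 5.03 CPM in SC at day 5, where 13 of 16 SC libraries lay below the macrophage median. At day 14 its log2 fold change was 0.86 (SE 0.60, adjusted p = 0.209), and with the animal as a block it was -0.64 (adjusted p = 0.37).

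Pmp22 was the exception. Macrophages held 397, 701 and 946 CPM as lowest, median and highest at day 5, and SC libraries 7.75 to 291 CPM, with no overlap and a log2 fold change of -2.67 (SE 0.30, adjusted p = 1.86e-09). At day 14 macrophages held 567.5, 679.9 and 902.3 CPM. The SC libraries then reached from 67.9 to 1389 CPM and overlapped them, with a log2 fold change of -0.91 (SE 0.34, adjusted p = 0.0216), which with scaling by library size alone was -0.50 (adjusted p = 0.203). The stump is bulk tissue that holds both cell types and others. Fibroblast markers summed to 14000 to 47800 CPM in delayed and 13200 to 35300 CPM in immediate stumps. Pmp22 was the member with the smallest fold change in the stump among those tested. The part of macrophage RNA in that result, or of RNA from other cells, was not tested.

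**Figure D3:**
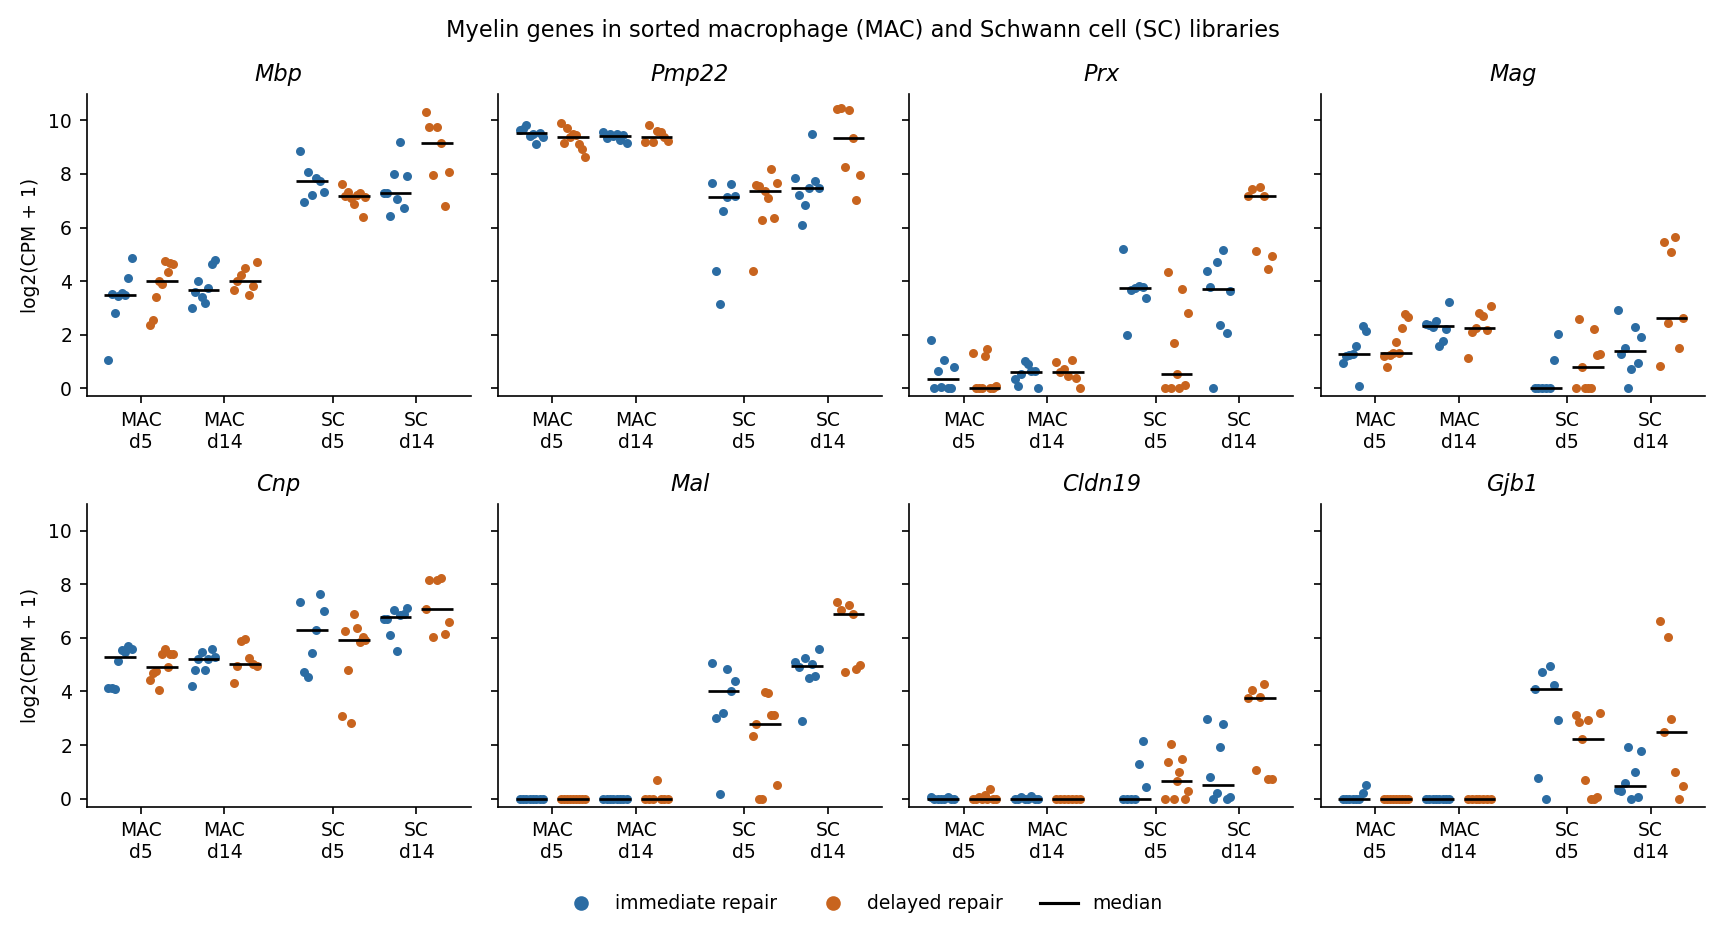
Level of each member as log2(CPM + 1) in sorted macrophage (MAC) and Schwann cell (SC) libraries at days 5 and 14, with 1 point per animal, colours for immediate and delayed repair and a line at each group median (7 to 9 animals a group). Mal, Cldn19 and Gjb1 lie at or near 0 in macrophages, Pmp22 lies higher in macrophages than in day 5 SC libraries, and delayed SC libraries at day 14 have the highest medians of Mbp, Prx and Mal.

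No member was called between repairs or days in macrophages. Mbp, Pmp22 and Cnp passed the filter there, and neither edgeR nor DESeq2 called any of them. Mag was also tested for repair by day and was not called (-0.36, adjusted p = 1). For delayed against immediate repair at day 5, where 0.0357% of genes were called, Mbp was at 0.36, Pmp22 at -0.25 and Cnp at -0.17 on the log2 scale, and at day 14, where 0% were called (0 of 8589 genes by edgeR and by DESeq2, 190 at an unadjusted p under 0.05), at 0.23, 0.06 and 0.19. Between days, where 11.3% of genes were called after immediate and 6.41% after delayed repair, the most marked difference was that of Pmp22 after immediate repair, at -0.29 (unadjusted p = 0.0192, adjusted p = 0.105). In the test of whether the effect of delay differed between days, 0.0223% of genes were called, and no member. Levels of the 3 genes overlapped in all these comparisons.

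In SC libraries of day 5, no member was called between repairs, nor any of the 9604 genes tested (0%, with 505 at an unadjusted p under 0.05 and 14 called by DESeq2). Mbp stood at 83.9, 143 and 194 CPM in the 9 delayed and at 124, 211 and 460 CPM in the 7 immediate libraries. The groups overlapped, and the log2 fold change was -0.70 (SE 0.26, unadjusted p = 0.0147, adjusted p = 0.848). Mal stood at 0, 5.80 and 14.9 CPM against 0.140, 15.2 and 32.7 CPM, and Gjb1 at 0, 3.65 and 8.08 CPM against 0, 16.2 and 29.8 CPM. Their log2 fold changes were -1.40 (SE 1.02) and -1.95 (SE 1.22), with wide errors. With the score of SC markers in the fit Mal was at -0.23 and Gjb1 at -1.85, and without the 4 delayed libraries under 5 CPM of Sox10 they were at -0.70 and -2.56. Prx stood at 0, 0.437 and 19.0 CPM against 3.0, 12.55 and 35.4 CPM, with a log2 fold change of -1.71 (SE 1.19, adjusted p = 0.921). Mal, Prx and Gjb1 met the filter only with the immediate libraries, where they were high, so the sign of their values was fixed in part by the filter. Pmp22 was at 0.41 (SE 0.54) and stood at 19.96, 163 and 291 CPM against 7.75, 142 and 204 CPM. It was at 1.20 with the score (adjusted p = 0.687) and at 0.56 without those libraries, and Cnp turned from -0.76 to 0.30 with the score. Mag and Cldn19, below the filter, were at 1.33 (SE 1.79) and 0.43 (SE 1.62) when no filter was used. None of the 6 SC markers was called in this comparison, and their median was -1.49 on the log2 scale. Macrophage markers had a median of 1.51 and none of 7 called, with sums of 215 to 4940 CPM in delayed and 119 to 1740 CPM in immediate libraries, and their part in the Pmp22 value was not tested. Delayed libraries 1, 3, 4 and 9 held under 5 CPM of Sox10. Library 4 had no count of Sox10, yet held 137 CPM of Mbp, 77.5 CPM of Pmp22 and 6.08 CPM of Cnp beside 2.27 CPM of Prx, and its 6 SC markers summed to 1.53 CPM.

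At day 14 all 6 members tested had positive log2 fold changes for delayed repair, but again none passed the test, nor did any of 10226 genes (0%, with 373 at an unadjusted p under 0.05 and 3 called by DESeq2). Prx stood at 20.7, 142 and 183 CPM in the 7 delayed and at 0, 12.0 and 34.7 CPM in the 8 immediate libraries. Every delayed library lay above the immediate median, with a log2 fold change of 2.83 (SE 0.76, unadjusted p = 0.00169, adjusted p = 0.998). Prx and Cldn19 met the filter only with the delayed libraries, where they were high, so the sign of their values was fixed in part by the filter. Mal stood at 25.4, 117 and 162 CPM against 6.45, 30.3 and 46.3 CPM, with a log2 fold change of 1.61 (SE 0.43, unadjusted p = 0.00165, adjusted p = 0.998). Mbp stood at 111, 565 and 1284 CPM against 85.8, 156 and 576 CPM, with a log2 fold change of 1.40 (SE 0.47, unadjusted p = 0.00825, adjusted p = 0.998). Pmp22 stood at 129, 653 and 1389 CPM against 67.9, 176 and 714 CPM, with a log2 fold change of 1.66 (SE 0.53, unadjusted p = 0.00596, adjusted p = 0.998). In each case the lower delayed libraries lay within the immediate range. Cnp was at 0.73 (SE 0.32) and Cldn19 at 1.95 (SE 1.17). Mag and Gjb1, below the filter, were at 3.02 (SE 0.93) and 4.81 (SE 1.38) when no filter was used, with an adjusted p of 0.461 for each. The SC markers lay at a median of -0.04 in this comparison.

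Within the delayed group of day 14, levels of Mbp, Prx and Mal were spread widely. Animals 1, 2, 4 and 6 held 565 to 1284 CPM of Mbp, 142 to 183 CPM of Prx and 117 to 162 CPM of Mal. Animals 3, 7 and 8 held 111 to 270 CPM, 20.7 to 33.8 CPM and 25.4 to 31.01 CPM of the same genes. Sox10 was at 126 to 153 CPM in the first 4 animals and at 13.7, 96.0 and 45.8 CPM in the others, so an SC marker moved with these levels, and its part in them was not tested. Mag and Gjb1 did not follow one another. Mag was at 42.5, 33.0 and 49.3 CPM in animals 2, 4 and 6, where Gjb1 was at 4.62, 6.74 and 0.996 CPM, whereas animal 1 had 99.0 CPM of Gjb1 and 0.775 CPM of Mag. In the immediate group, animal 6 stood apart with 576 CPM of Mbp and 714 CPM of Pmp22.

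**Figure D4:**
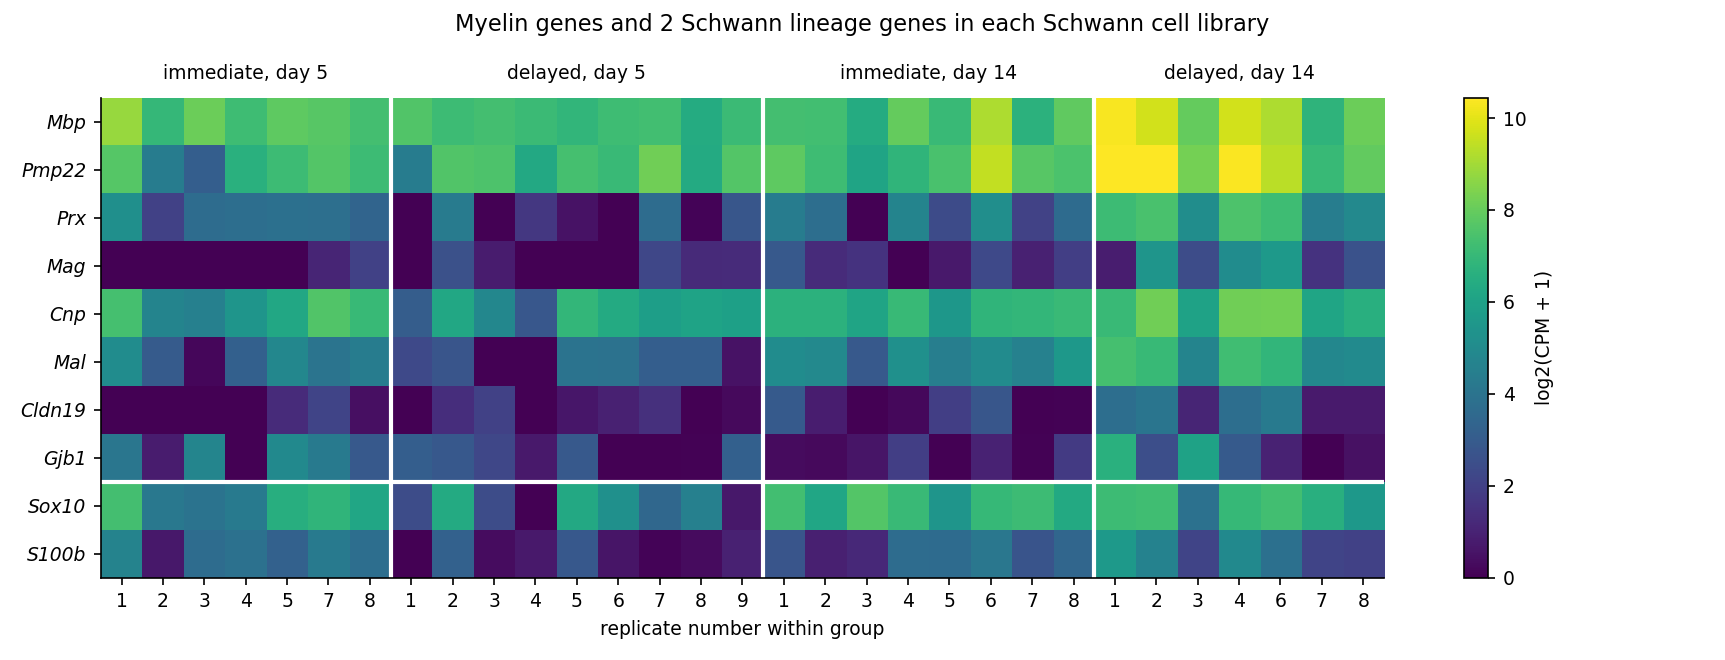
Level of the 8 members, and of Sox10 and S100b, in each of the 31 Schwann cell libraries, as log2(CPM + 1) by colour, with libraries in columns by group and replicate number. Delayed libraries 1, 2, 4 and 6 of day 14 are bright for Mbp, Prx and Mal, as immediate library 6 of day 14 is for Mbp and Pmp22, and delayed libraries 1, 3, 4 and 9 of day 5 are dark for Sox10.

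Between day 5 and day 14 after delayed repair, SC libraries gained myelin RNA. Of 6 members tested, 4 rose and none fell, where 8.09% of all genes were called and 3.34% were called higher. Prx and Mal reached the filter through the day 14 libraries, where they were high, and without them 2 of 4 were called. Prx rose from 0, 0.437 and 19.0 CPM in 9 libraries to 20.7, 142 and 183 CPM in 7, without overlap. The log2 fold change was 4.32 (SE 1.15, adjusted p = 0.0313). Mal rose from 0, 5.80 and 14.9 CPM to 25.4, 117 and 162 CPM, also without overlap, by 3.74 (SE 0.88, adjusted p = 0.0193). Mbp rose by 1.81 (SE 0.37, adjusted p = 0.0114) and Pmp22 by 2.14 (SE 0.50, adjusted p = 0.0193), with 6 of 7 libraries of day 14 above the day 5 median. Cnp stood at 6.08, 59.8 and 119 CPM on day 5 and at 63.5, 133 and 300 CPM on day 14, at 1.50 (SE 0.49, adjusted p = 0.0667), and Gjb1 was at 2.59 (SE 1.37, adjusted p = 0.237), or 1.73 without day 14 library 1. Over all alternatives run, Gjb1 ranged from 0.79 to 2.95. Mag and Cldn19 were below the filter, with medians of 0.739 and 0.5682 CPM on day 5 and of 5.16 and 12.5 CPM on day 14.

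These calls depended on which libraries entered. Without the 4 day 5 libraries under 5 CPM of Sox10, a threshold chosen after the values were seen, Mal alone was called, at 3.03 (SE 0.54, adjusted p = 0.0288). Mbp was then at 2.05 (adjusted p = 0.0784), Pmp22 at 1.98 (adjusted p = 0.119) and Prx at 3.82 (adjusted p = 0.158), close to their sizes in all libraries. The Prx call was also lost on leaving out day 5 library 4 or day 14 library 1, 2, 4 or 6, with an adjusted p of 0.0501 to 0.0632. Cnp became called without day 5 library 5 or day 14 library 3, and by DESeq2 (adjusted p = 0.0153). The SC markers had a median of 2.12 here, with none of 6 called, and Sox10 was at 1.81 (adjusted p = 0.195). With a score of the SC markers in the fit, neither a member nor any other gene was called, with Mbp at 1.57, Pmp22 at 1.20, Prx at 2.64 and Mal at 1.14 (adjusted p from 0.944 to 0.999). Fibroblast markers had a median of 2.45, with none of 4 called.

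Among other myelin genes, 7 of 19 were higher over the same interval, 1 was lower, Litaf, and 11 were not called, where 3.34% of all genes were called higher and 4.75% lower. Gjc3, a connexin, was at 3.47 (adjusted p = 0.00212), the tetraspanin Cd9 at 0.73 (adjusted p = 0.0111) and Ncmap, a protein of non-compact myelin, at 4.61 (adjusted p = 0.0158). Of 15 regulators, Pou3f1 alone was called, at 2.84 (adjusted p = 0.00992), and Egr2 was at 1.27 (adjusted p = 0.0805). Of 8 repair genes, 4 were higher, among them Ncam1 at 3.51 and Gfap at 4.35.

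After immediate repair no member was called between the days, where 3.81% of genes were (382 of 10016). Mbp was at -0.30, Pmp22 at 0.91, Prx at -0.21, Cnp at 0.00 and Mal at 0.74, with adjusted p from 0.429 to 0.996 and overlapping groups. Without day 14 library 6, Pmp22 was at 0.37 and Mbp at -0.72. Gjb1, below the filter, went from a median of 16.2 CPM on day 5 to one of 0.375 CPM on day 14, and all 8 libraries of day 14 lay below the day 5 median. Among the other myelin genes 1 of 17 was called, Ndrg1 at -0.83. Whether the change between days differed between repairs was tested directly over all 4 groups. No member and none of 10923 genes was called (0%, with 524 at an unadjusted p under 0.05 and 8 called by DESeq2). The smallest unadjusted p among the members were those of Mbp, at 2.09 (SE 0.55, unadjusted p = 0.000675, adjusted p = 0.716), and Gjb1, at 6.75 (SE 1.94, unadjusted p = 0.00152, adjusted p = 0.73). In delayed SC of day 14, Gjb1 was at 99.0 and 64.4 CPM in libraries 1 and 3 and at most 6.74 CPM in the rest. Single libraries were not left out of this test.

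**Figure D5:**
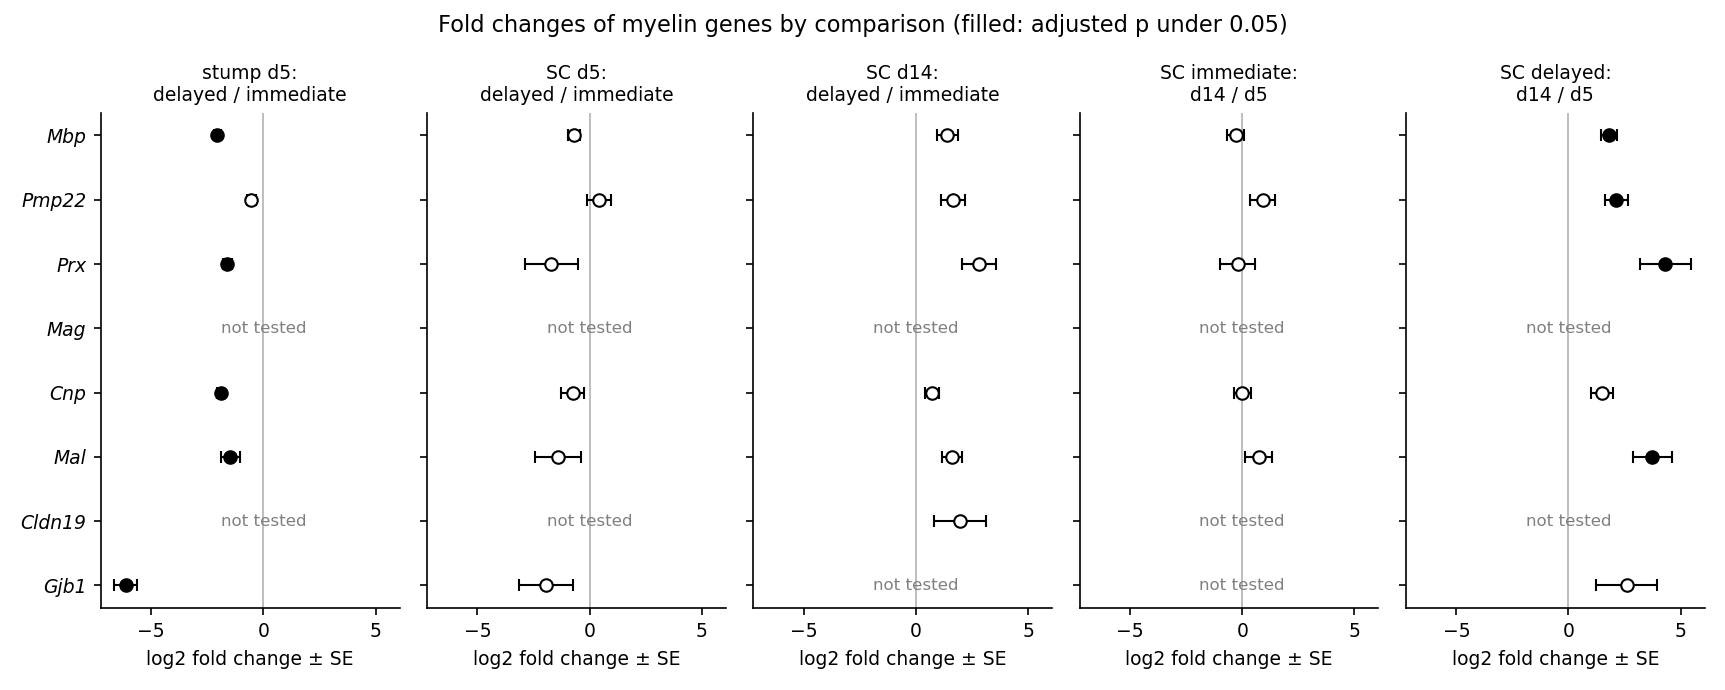
Log2 fold change of each member (points, bars show the standard error) in 5 comparisons, 1 panel each, of the distal stump (7 immediate and 9 delayed animals) and of Schwann cells (7 to 9 animals a group), with filled points for an adjusted p under 0.05 and members below the count filter marked as not tested. In the stump all 6 members tested lie to the left of 0, with Pmp22 nearest to it and not called, and in delayed Schwann cells all 6 lie to the right of 0 at day 14, with Cnp and Gjb1 not called.

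Levels can be compared between genes only per kilobase of exon. On this scale the order of the members in immediate stumps was Cnp, Pmp22, Mbp, Mal, Gjb1, Prx, Cldn19 and Mag, with median levels of 44.4, 35.6, 14.6, 11.9, 10.5, 7.6, 1.25 and 1.01 CPM per kilobase. Mal exceeded Gjb1 in only 4 of 7 animals and Cldn19 exceeded Mag in 4 of 7, so these neighbours had no firm order. In delayed stumps Pmp22 led with 24.5 CPM per kilobase, above Cnp at 13.6 in 9 of 9 animals, and Gjb1 came last at 0.102, not firmly below Cldn19 at 0.123. By median Pmp22 was first in every sorted group, with 281 to 310 CPM per kilobase in macrophages and 60.2 to 277 in SC libraries. On day 5 it exceeded the next gene in 5 of 7 immediate and 8 of 9 delayed SC libraries. In delayed SC of day 14 it was followed by Mbp at 66.7, Mal at 42.1, Cnp at 36.6 and Prx at 25.4 CPM per kilobase by median, although Mal exceeded Cnp in only 1 of 7 libraries. In immediate SC of day 14 the corresponding levels were 18.4 for Mbp, 10.9 for Mal, 29.8 for Cnp and 2.15 for Prx. Stump and sorted cell libraries were made with different kits, so levels are not compared across them.

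Once group means were removed, members differed in how closely they followed each other from animal to animal. Over the 16 stump libraries, Pearson's r with the mean of the other 7 members was 0.894 for Cldn19, 0.824 for Prx and 0.742 for Mbp, but -0.187 for Mag. Over the 31 SC libraries it was 0.775 for Pmp22, 0.682 for Mbp and 0.172 for Gjb1. Among the genes most like the mean of the members were Map2 (0.946), Igsf11 (0.933), Cryab (0.929), Xrcc5 (0.918) and BC030336 (0.917) in the stump, and Pllp (0.853), Timp3 (0.783), Gnai1 (0.765) and Epb4.1l4b (0.756) in SC libraries. In the stump the macrophage gene Emr1 ran the other way, at -0.698. These correlations describe libraries that share cell makeup and depth, and carry no test.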

How the data were processed

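Gene expression was measured in 16 distal stump, 31 SC and 32 macrophage libraries. The stump libraries were made with a directional kit after rRNA depletion, and the sorted cells from amplified cDNA. The authors deposited estimated counts per gene in 3 tables, of which 0.951% to 1.18% of values were not whole. Their processing notes name cutadapt 1.8, TopHat2 2.1.1, Cufflinks 2.2.1 and Cuffnorm on mm10, and the program that wrote the counts is not given in the sources used here. Counts were rounded to whole numbers. Amplified reads carry no molecular identifiers.

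Groups were taken from the labels. Genes that reached 5 CPM in 6 or more libraries were tested with edgeR 4.0.16 (TMM scaling, quasi-likelihood test, R 4.3.3) between the 2 groups of each comparison, and p-values were adjusted by Benjamini-Hochberg over all genes tested at a threshold of 0.05. Separate animals are the replicates. Alternatives were DESeq2 1.42.0, scaling by library size, other filters, sex, a replicate block, an SC marker score and leaving out each library.

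All 8 members were reported, though not each in every comparison. They were given with up to 5 genes of each further list by smallest p, and the 5 genes most like the mean log2(CPM + 1) of the members. Some genes these rules select are not reported here. Members and lists were chosen with earlier results of these data known. Same-numbered animals of the repair and day comparisons were not paired, since not every pair's correlation was over 0.1. For delayed against immediate macrophages, it was over 0.1 in 7 of 8 pairs at day 5 and 6 of 7 at day 14. Between macrophages and SC, the best match was the same animal in 7 of 16 cases at day 5 and 11 of 15 at day 14. The main tests treated all these libraries as independent. SC and macrophages of the same animals are paired by animal in 16 cases at day 5 and in 15 at day 14, and the fit with the animal as a block changed the call of Cnp at day 5. Exon lengths and positions came from GENCODE vM21 on GRCm38, promoters from RefSeq.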

Additional observations from a re-analysis of the deposited data

Results flagged for a closer look

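Among 73 groups of members' values checked, 6 held a library far from the others, and chance flags about 1 in 20 groups. That rate does not hold for groups in which most values are 0, and the macrophage flags below come from such groups. Pmp22 was at 19.96 CPM in SC library 1 of delayed repair at day 5, and the next lowest held 77.5 CPM. Mal was at 0.608 CPM in macrophage library 4 of delayed repair at day 14, with 0 in the other libraries of that group, and the same library held 1.75 CPM of Sox10. Mal was at 0.14 CPM in SC library 3 of immediate repair at day 5, below 6.97 CPM in the next, and at 6.45 CPM in SC library 3 of immediate repair at day 14, below 21.4 CPM in the next. Cldn19 reached 0.272 CPM in macrophage library 7 of delayed repair at day 5, above 0.0888 CPM, and Gjb1 reached 0.418 CPM in macrophage library 8 of immediate repair at day 5, above 0.168 CPM. The cause of these values was not tested.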

How the results depend on the processing

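With a score of the SC markers in the fit, the stump counts went from 3221 genes and 5 members to 16 and 0, and delayed SC between days from 806 genes and 4 members to 0 and 0. That fit turned Mal in the stump to 1.06, Cnp to 0.30 at day 5, -0.46 after immediate and -0.16 after delayed repair between days, and Mag (-1.35) and Cldn19 (-1.10) in the SC test of repair by day. Without the 4 libraries low in Sox10, chosen after seeing the data, delayed SC had 47 genes and 1 member, SC of day 5 had 1 gene and the SC test of repair by day 2. With a replicate block, delayed SC had 241 genes and 0 members (Mbp 1.49, Pmp22 2.11, Prx 6.89, Mal 4.32), immediate SC 197 genes (382 without) and day 5 macrophages 12 (3 without), Mag turned to -0.64 between SC and macrophages at day 14, and no other member count changed by over 1.5 times. By DESeq2 the genes called were 14 and 3 in SC at days 5 and 14, 17 in day 5 macrophages, 922 and 1524 in immediate and delayed SC between days, 890 in delayed macrophages between days, 8 in the SC and 9 in the macrophage test of repair by day. With sex in the fit, 1 gene was called in day 5 SC and 8 in day 5 macrophages, and scaling by library size gave 1484 in immediate macrophages (964 otherwise) and 0 in the macrophage test of repair by day. The SC score left 80 genes in immediate SC. Leaving out 1 library gave 2363 to 3347 genes and 5 to 6 members in the stump, 0 to 1 gene in day 5 SC, 1 to 3 in day 5 macrophages, 222 (without day 5 library 2) to 638 (without day 5 library 5) in immediate SC, and 359 (without day 14 library 2) to 1175 (without day 14 library 3) genes with 3 to 5 members in delayed SC. Values near 0 changed sign: Cnp in immediate SC (-0.0043 and -0.0029 by other filters, -0.16 to 0.28 without single libraries), Prx there (-0.58 to 0.19 without single libraries, -0.92 to 0.19 over all alternatives), Pmp22 in day 14 macrophages (-0.015 to 0.10), Pmp22 in delayed macrophages between days (-0.015 and -0.022 by other filters, -0.015 with sex, -0.029 with the block), Cnp in immediate macrophages (0.0036 by library size) and Mbp in the macrophage test of repair by day (0.064 with sex, 0.011 with the block). The cause of these shifts was not tested. Cldn19 and Gjb1 lie near the 3-count limit in many libraries, as does Mal in macrophages and Mag in SC, so depth limits their folds.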

Other observations

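In macrophages of day 5, the levels of all 3 members tested differed between the sexes, a comparison made after the values were seen. In the fit with sex as a covariate, females were higher than males for Mbp by 1.15 (SE 0.33, adjusted p = 0.0154) and for Cnp by 0.87 (SE 0.16, adjusted p = 0.000807) on the log2 scale, while Pmp22 was at -0.49 (SE 0.14, adjusted p = 0.0124), lower in females (edgeR quasi-likelihood test with Benjamini-Hochberg adjustment). In that fit 25.1% of all genes were called, 2113 of 8409. At day 14 the same coefficients were 0.30, -0.08 and -0.14 (adjusted p = 1 for each), and 0.0466% of genes were called. Whether the sex difference itself changed between days was not tested. The same fit called no member in the stump (0.0654% of genes called), in SC of day 5 (7.02%) or in SC of day 14 (0.0391%). Males held the lower replicate numbers and females the higher ones in every group, so an effect tied to that order cannot be told apart from sex.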
